A study of Mus musculus with 5480 samples.

Results

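The 9 genes described here encode the D-type cyclins (Ccnd1, Ccnd2, Ccnd3), the kinases they activate (Cdk4, Cdk6), the inhibitors that hold these kinases back (Cdkn1b, Cdkn2b, Cdkn2c) and their main substrate, the retinoblastoma protein (Rb1). They were taken as a fixed list of symbols, and all 9 were rows of a counts table of 18072 genes. The table held 5480 mesenchymal cells sorted from the distal lung of 10 mice, with 1 female and 1 male a group. Cells came from embryonic day 18.5 (E18.5), and from postnatal days 1, 7 and 21 (P1, P7, P21) under the treatment labelled normal, called normal air here. The fifth group was P7 under hyperoxia, an excess of inhaled oxygen used in newborn rodents as a model of lung injury. The strain, the oxygen level and the length of exposure were not given in the sources used here, and no allele or transgene is named.

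D cyclins link growth signals to the cell cycle. They are made when a cell receives mitogens, bind CDK4 or CDK6, and the active kinase phosphorylates RB1, which then releases E2F transcription factors and lets the cell enter S phase. The INK4 proteins p15 (Cdkn2b) and p18 (Cdkn2c) bind CDK4 and CDK6 directly, whereas p27 (Cdkn1b) acts mainly on CDK2 complexes and also helps D cyclins assemble with their kinases. In the newborn lung, fibroblasts and myofibroblasts multiply while alveoli form, and most leave the cycle afterwards.

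The regulatory sequence of both kinase genes is shown first because Cdk4 had the firmest change with age. RefSeq (build GRCm38.p6) gave promoter entries for 6 of the 9 members. The 250 bases before the start of Cdk4 (chr10:127063285-127063534, plus strand) and of Cdk6 (chr5:3343643-3343892, plus strand) are printed with each CACGTG, the E-box read by MYC and related factors, in capitals. CACGTG reads the same on both strands.
Cdk4: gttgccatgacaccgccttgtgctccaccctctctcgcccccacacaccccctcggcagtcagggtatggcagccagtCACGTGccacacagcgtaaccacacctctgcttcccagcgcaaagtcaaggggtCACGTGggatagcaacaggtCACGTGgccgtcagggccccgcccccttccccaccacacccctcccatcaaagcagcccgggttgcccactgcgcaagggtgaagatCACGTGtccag
Cdk6: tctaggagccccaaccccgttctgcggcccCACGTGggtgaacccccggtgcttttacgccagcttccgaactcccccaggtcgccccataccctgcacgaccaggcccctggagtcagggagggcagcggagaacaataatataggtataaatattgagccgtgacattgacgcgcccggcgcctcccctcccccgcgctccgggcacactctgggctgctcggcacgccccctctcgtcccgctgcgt
The Cdk4 window held 4 of these E-boxes and the Cdk6 window 1. None was found in the windows of Ccnd3, Cdkn1b, Cdkn2b or Cdkn2c. Over 32851 RefSeq promoter windows of that length, 6.02% held at least 1 and 20 windows (0.0609%) held at least 3. The E2F-type motifs TTTCGCGC and TTTGGCGC, searched on both strands, were in 0 of the members' windows and in 0.654% of all windows. A match describes letters and does not show binding.

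For every mouse, reads were added up over all its cells and over those of 6 classes of the authors' subtypes with at least 10 cells. The classes were alveolar fibroblasts, adventitial fibroblasts, pericytes, myofibroblasts, and airway and vascular smooth muscle. Alveolar, adventitial and airway classes joined the early and the later subtype. Totals ran from 294154721 to 671766116 reads and from 311 to 633 cells a mouse. Levels are CPM, reads scaled to a common library size with TMM factors, and paired values give the female first and the male second. Differences were tested with edgeR's quasi-likelihood test and Benjamini-Hochberg adjustment over all genes of a comparison, with a threshold of 0.05. With 2 mice a group, p-values rest on the spread left between single animals after a term for sex, estimated over all groups of a class. Mesenchymal markers summed to between 7668 and 24692 CPM of total reads in each mouse, and epithelial, endothelial, immune and erythroid lists each to at most 77.0 CPM.

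Per kilobase of exon, the only scale on which different genes can be set side by side, Cdk4 was the most abundant member. Its level over the 10 mice had a median of 126 CPM per kilobase and ranged from 38.8 to 176. Ccnd2 followed at 48.9 (20.7 to 93.9), then Ccnd3 at 23.3 (11.4 to 31.8) and Cdkn2c at 19.4 (5.60 to 32.6). Cdk6 had a median of 11.6, Ccnd1 of 5.84, Cdkn1b of 5.56 and Rb1 of 1.13. Cdkn2b was nearly absent, with a median of 0.516 CPM per kilobase and reads in 83 of 5480 cells. The kinase and the cyclin that lead this order were read in 4016 cells (Cdk4) and 3752 cells (Ccnd2).

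The subtypes differed widely in which D cyclin they carried. Over all mice, Ccnd2 was high in myofibroblasts (1399 ± 544 CPM, SD, n = 6 mice), pericytes (1014 ± 375, n = 8) and vascular smooth muscle (937 ± 322, n = 8). These means cover different groups, since 2 of the 6 myofibroblast libraries were from hyperoxia, at 2067 ± 136 CPM, and no pericyte library was. In normal air, pericytes averaged 1100 ± 178 at P1 and 1304 ± 162 at P7, and myofibroblasts 922 ± 196 and 1209 ± 45.1 (n = 2 each), differences within the larger SD. It was lowest in the airway smooth muscle of P21 (34.5 ± 4.87, n = 2) and in the myofibroblast and smooth muscle precursors of E18.5 (45.5 ± 5.80, n = 2). The authors drew their subtypes from expression, so these levels are a description without a test. In the order of subtype means, 5 of 14 neighbouring pairs were farther apart than the larger SD, so the leading 3 cannot be ranked among themselves.

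Ccnd1 in myofibroblasts averaged 262 ± 257 CPM (n = 6), with the hyperoxia mice far above the others. Their mean was 592 ± 8.23, beside 112 ± 33.1 for normal air mice of P7 and 81.7 ± 26.2 for those of P1 (n = 2 each). Pericytes of P1 had 112 ± 109 CPM (n = 2). Proliferating myofibroblasts (65.9 ± 74.9, n = 3) and early adventitial fibroblasts (60.6 ± 31.1, n = 8) came next among subtypes seen in more than 1 mouse. Alveolar fibroblasts (0.792 ± 1.06, n = 2) and airway smooth muscle (0.445 ± 0.629, n = 2) were at the bottom of subtypes with replicate mice. For Ccnd1, 1 of 14 neighbouring pairs was separated beyond the larger SD.

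Ccnd3 varied least of the D cyclins. Early adventitial fibroblasts carried 358 ± 170 CPM (n = 8), early alveolar fibroblasts 210 ± 42.9 (n = 8) and fibroblast precursors 205 ± 22.3 (n = 2). Proliferating myofibroblasts had 92.3 ± 26.8 (n = 3) and airway smooth muscle 98.1 ± 21.0 (n = 2). Here too, 1 of 14 neighbouring pairs stood apart.

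As shares of D cyclin reads per exon length, Ccnd2 was the leading cyclin in 51 of 64 subtype-by-mouse libraries, Ccnd3 in 12 and Ccnd1 in 1. Ccnd2 made up 80.3% ± 11.0 in pericytes (SD, n = 8), 78.5% ± 7.97 in vascular smooth muscle (n = 8) and 71.1% ± 9.09 in myofibroblasts (n = 6). Ccnd3 instead made up 78.5% ± 3.93 in the myofibroblast and smooth muscle precursors and 74.7% ± 0.784 in airway smooth muscle (n = 2 each). Early airway smooth muscle, the younger subtype of the same lineage name, had 66.2% ± 4.33 Ccnd2 (n = 6). Myofibroblasts had the lowest mean Ccnd3 share, at 7.93% ± 4.75 (n = 6). Proliferating myofibroblasts (14.2% ± 4.57, n = 3), pericytes (15.0% ± 7.87, n = 8) and vascular smooth muscle (15.4% ± 7.21, n = 8) came next, too close to rank.

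**Figure D1:**
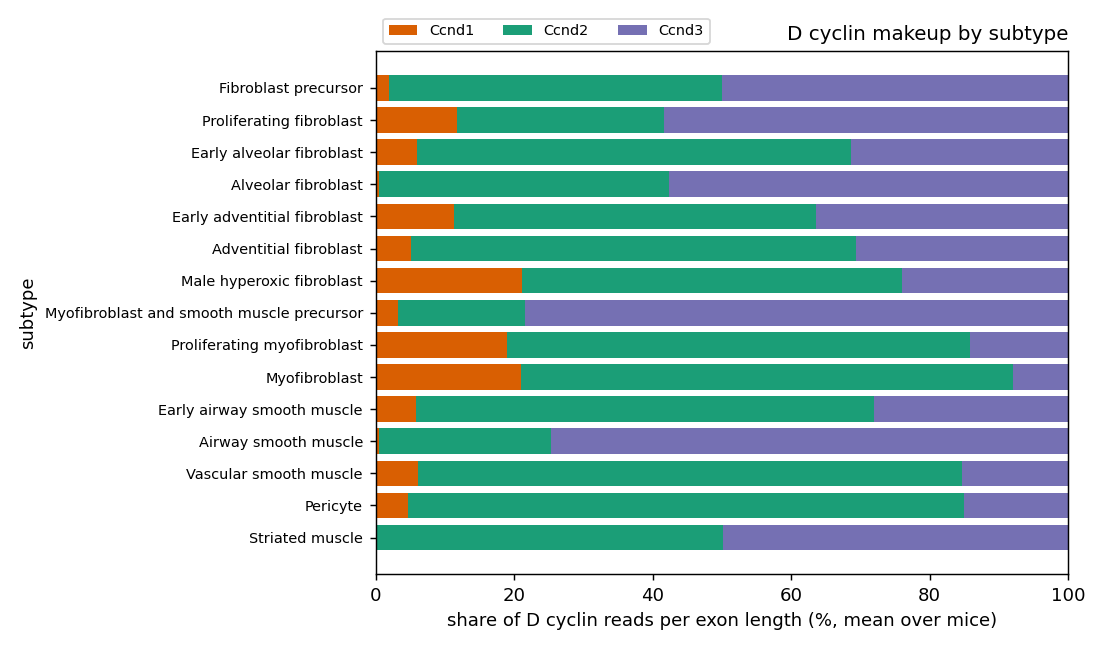
Mean share of each D cyclin (%, horizontal axis) in the reads per exon length of the 3 D cyclins, by subtype; bars stack to 100 and average the mice with at least 10 cells. Ccnd2 fills 80.3% of the pericyte bar, and Ccnd3 fills 78.5% of the myofibroblast and smooth muscle precursor bar.

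Of the kinases, Cdk4 was highest in the proliferating myofibroblasts (942 ± 122 CPM, n = 3), then in myofibroblasts (672 ± 77.8, n = 6) and proliferating fibroblasts (554 ± 105, n = 5). Each of these 3 steps down exceeded the larger SD. Alveolar fibroblasts, a P21 subtype, held 120 ± 10.3 CPM (n = 2). Cdk6 was highest in pericytes (706 ± 381, n = 8) and myofibroblasts (391 ± 257, n = 6). The latter held 696 ± 161 in hyperoxia and 220 ± 64.7 in normal air at P7 (n = 2 each). It was lowest in adventitial fibroblasts (34.9 ± 0.526, n = 2) and airway smooth muscle (36.8 ± 20.4, n = 2) among subtypes with replicate mice.

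Among the inhibitors, Cdkn2c had the sharpest pattern. Alveolar fibroblasts held 251 ± 57.0 CPM (n = 2), above proliferating myofibroblasts (148 ± 72.9, n = 3) and proliferating fibroblasts (137 ± 73.6, n = 5) by more than the larger SD. Early alveolar fibroblasts came next with 57.7 ± 55.7 (n = 8), and early airway smooth muscle had 2.81 ± 3.37 (n = 6). Among subtypes with replicate mice, Cdkn1b ran from 15.2 ± 12.6 CPM in alveolar fibroblasts (n = 2) to 53.9 ± 41.3 in proliferating fibroblasts (n = 5), and 0 of 14 neighbouring pairs were separated. Cdkn2b reached 3.46 ± 3.93 in adventitial fibroblasts (n = 2). Rb1 ran up to 31.4 ± 35.3 in alveolar fibroblasts (n = 2), where 1 mouse set the mean.

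**Figure D2:**
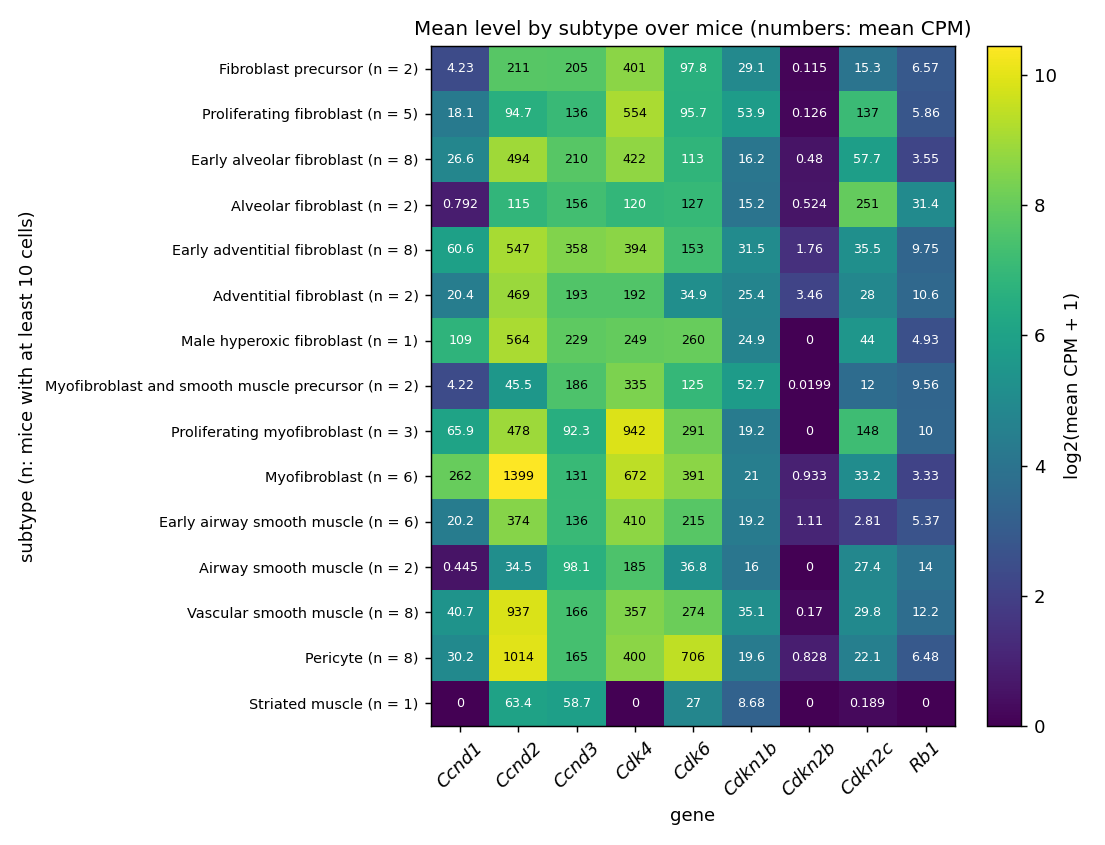
Mean CPM of each member (columns) in each subtype (rows, with the number of mice), coloured on a log2 scale with a pseudocount of 1. Means cover all groups in which a subtype was found, hyperoxia included. Ccnd2 averages 1399 CPM in myofibroblasts, where hyperoxia mice are 2 of 6, and 1014 in pericytes, which have none; Cdk4 peaks in proliferating myofibroblasts at 942 and Cdkn2c in alveolar fibroblasts at 251.

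The subtypes named proliferating could be set beside their non-proliferating counterpart within the same mouse in 8 pairs. Proliferating myofibroblasts were set beside myofibroblasts. Proliferating fibroblasts were set beside fibroblast precursors at E18.5 and early alveolar fibroblasts at P7. Hyperoxia mice are included, and some mice entered more than once. Against the few early alveolar fibroblasts of E18.5, left out here, the Cdk4 log2 ratio was -0.15 in the female and 0.61 in the male. Cdk4 was higher in the proliferating cells in 8 of 8 pairs (median log2 ratio 0.38, range 0.22 to 0.61), and so was Cdkn2c (median 1.75, range 0.82 to 2.29). Ccnd2 was lower in 8 of 8 pairs (median -2.54, range -3.06 to -0.81), and Ccnd1 in 7 of 8 (median -1.37). Ccnd3 and Cdk6 were each lower in 6 of 8 pairs, with medians of -0.38 and -0.38. In these pairs Cdk4 and the inhibitor Cdkn2c were thus higher together in the cells labelled as dividing, while Ccnd2 was lower. In proliferating fibroblasts the mean share per exon length was 58.3% ± 21.0 for Ccnd3 and 29.9% ± 14.4 for Ccnd2 (n = 5). Ccnd3 was highest in the E18.5 mice, at 82.2% and 79.3%. At P7 the female in normal air had 49.0% Ccnd3 and 47.9% Ccnd2. The hyperoxia female had 36.1% and 40.6%, with Ccnd2 leading, and the hyperoxia male 45.1% and 28.8%. The ratios use a pseudocount of 1 CPM and carry no test, because the label came from expression.

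With age, the edgeR fit over all groups called members in the summed cells at a single step, the fall of Cdk4, Ccnd1 and Ccnd2 after P7. DESeq2 and an edgeR fit of the 4 mice compared also called Ccnd1 (adjusted p = 0.000288 and 0.0347) and Ccnd2 (0.0301 and 0.0168) higher from E18.5 to P1. Both called Cdkn2c higher from P1 to P7 (0.00121 and 0.0235). RLE scaling, no filter on low counts, and leaving out the CD31 and CD45 sorts or the proliferating subtypes called none of these. Over all cells, 3 of 9 members were called lower from P7 to P21 and 0 higher. In that comparison 9.97% of the 17283 genes tested were called, 4.58% as lower. The median log2 change was -0.04 over the members and 0.03 over all genes. Fewer cells of a type and less RNA per cell cannot be told apart in such sums.

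Cdk4, the kinase partner of D cyclins, had 388 and 443 CPM in the E18.5 mice, 383 and 432 in those of P1, 546 and 571 in those of P7, and 126 and 221 in those of P21. Both P21 mice lay below every younger mouse. The log2 change from P7 to P21 was -1.71 (SE 0.31, edgeR adjusted p = 0.00956). Reads of Cdk4 were found in 437 of 592 and 376 of 547 cells at P7 and in 222 of 512 and 101 of 302 at P21, after thinning cells to 100000 reads (unthinned, 468 of 606, 407 of 570, 252 of 524 and 132 of 311).

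Ccnd2, the most read D cyclin, was highest at P7, with 206 and 195 CPM before birth, 448 and 441 at P1, 717 and 883 at P7, and 201 and 473 at P21. The P7 and P21 mice did not overlap, but the male at P21 lay above both mice of P1. The P7 to P21 change was -1.29 on the log2 scale (SE 0.35, edgeR adjusted p = 0.0442). The steps before it were 1.14 from E18.5 to P1 (adjusted p = 0.183) and 0.83 from P1 to P7 (adjusted p = 0.406). Neither was called in the edgeR fit over all groups.

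Ccnd1, a D cyclin that growth factors induce, was at 6.79 and 4.50 CPM before birth, 37.2 and 17.8 at P1, 47.0 and 41.3 at P7, and 4.41 and 13.6 at P21. The P7 to P21 change was -2.28 (SE 0.54, edgeR adjusted p = 0.0270). The E18.5 to P1 difference was as large, at 2.28 (SE 0.53), and missed the threshold (adjusted p = 0.0828).

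These 3 calls depended on the P7 mice. Without the female at P7, the edgeR adjusted p was 0.0604 for Cdk4, 0.139 for Ccnd2 and 0.102 for Ccnd1, and without the male at P7 it was 0.0751, 0.227 and 0.149. Ccnd2 also lost its call without the female of E18.5 (0.0696), the male of E18.5 (0.0702), the female of P1 (0.0613), the male of P1 (0.0615), the female of P21 (0.117) and the male of hyperoxia (0.0507). Ccnd1 also lost its call without the female (0.0505) or the male (0.0521) of hyperoxia. All log2 changes stayed below 0, but their size moved with the P21 mice. Without the female at P21 the change was -1.47 for Ccnd1 and -0.76 for Ccnd2, and without the male at P21 it was -3.51 and -1.94. Left-out fits hold 1 mouse in a group, which is assumed to vary like the others.

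In the edgeR fit over all groups, the other members did not pass the threshold at any step in all cells. Cdkn2c was at 24.0 and 15.0 CPM before birth, 19.0 and 35.6 at P1, 87.0 and 83.7 at P7, and 87.5 and 78.3 at P21. Its P1 to P7 difference was 1.64 on the log2 scale (SE 0.36, edgeR adjusted p = 0.104), and both P7 mice lay above both P1 mice. Ccnd3 had 225 and 279 CPM at P1 and 160 and 100 at P7, a difference of -0.97 (SE 0.29, adjusted p = 0.228). Rb1 was at 6.58 and 5.80 CPM at P7 and at 13.2 and 13.7 at P21. Cdk6 had 128 and 209 CPM at P7 and 99.2 and 277 at P21, with the P21 mice on either side of the P7 mice. Cdkn1b and Cdkn2b overlapped between P7 and P21.

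From E18.5 to P1, 0 of 9 members were called, against 1.23% of all genes; 2 members had an unadjusted p under 0.05, against 12.2% of genes. From P1 to P7 it was 0 of 9 against 0.22%, with 3 members and 11.1% of genes under 0.05 unadjusted. In that step both P7 mice lay above both P1 mice for 6 members and below them for 1, against 22.7% and 22.4% of all genes.

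**Figure D3:**
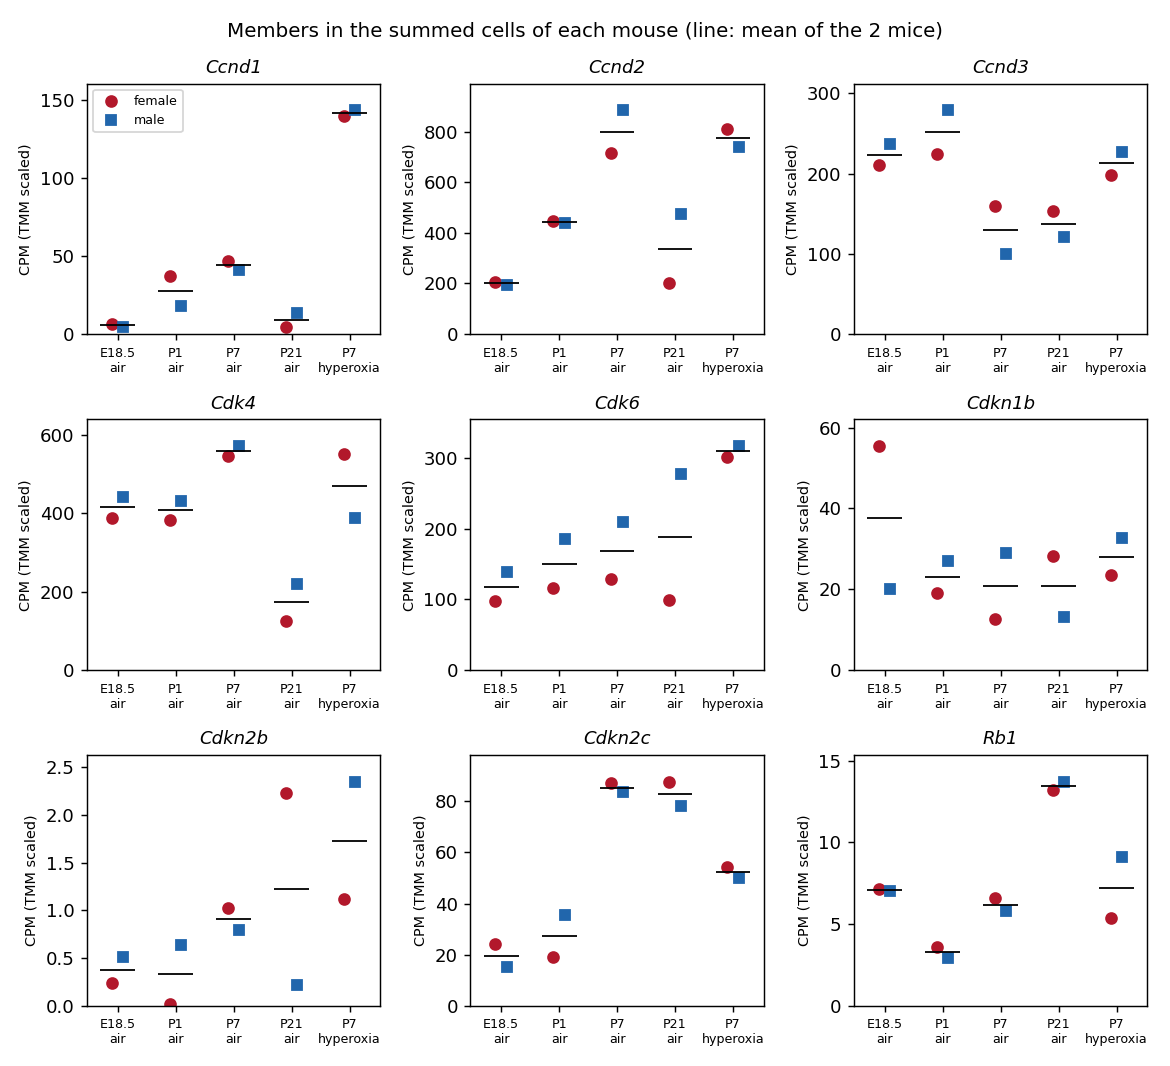
CPM of each member in the summed cells of each mouse (vertical axis, linear from 0) by group; circles are females, squares males and lines the mean of the pair. Cdk4 drops from 546 and 571 CPM at P7 to 126 and 221 at P21, and Ccnd1 is highest in hyperoxia at 140 and 144.

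The fall after P7 ran beside the loss of dividing cells. Proliferating subtypes held 54 of 606 and 56 of 570 cells at P7 and 0 of 524 and 0 of 311 at P21, which allows shares of up to 0.573% and 0.965%. Of 20 S phase and mitosis genes, 16 were called lower in all cells at P21 and 0 higher (median log2 change -4.28), among them Bub1 (-9.02), Top2a (-7.91), Cdk1 (-7.37) and Ccnb2 (-6.23). Of 7 genes of the cyclin E and CDK2 list, 4 were called lower: Ccna2 (-5.70), Ccne2 (-4.00), Ccne1 (-2.90) and Cks1b (-2.78). With the proliferating subtypes left out, the 3 members kept their calls, at -1.63 for Cdk4 (edgeR adjusted p = 0.0144), -1.38 for Ccnd2 (0.0401) and -2.39 for Ccnd1 (0.0265). Myofibroblasts, high in Ccnd1, Ccnd2 and Cdk4, stayed in that fit. They were 155 of 606 and 184 of 570 cells at P7, and neither mouse of P21 had as many as 10. Their part in the fall was not tested.

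Genes listed as other CDK inhibitors, cyclin D regulators or pocket proteins and E2F were called in both directions at the same step. Cdkn1a, which encodes the CDK inhibitor p21, rose by 2.995 on the log2 scale (SE 0.35, edgeR adjusted p = 0.000965), and Cdkn3 fell by 5.39. Those were 1 higher and 1 lower of 4 genes tested from the list of other CDK inhibitors. Myc rose by 2.34 (SE 0.33, adjusted p = 0.00239), the only call among 11 cyclin D regulators in all cells. Of the classes, only airway smooth muscle had calls of Cdkn1a and Myc at this step. Cdkn1a went from 77.2 ± 76.3 to 2864 ± 1341 CPM there (log2 change 5.64, edgeR adjusted p = 0.0140). Myc went from 75.3 ± 29.2 to 1321 ± 634 CPM (4.12, adjusted p = 0.0188). In that class 1.13% of genes were called. Its part in the rise over all cells was not tested. E2f7, a repressor of the E2F family that cycling cells make, fell by 7.38 in all cells. It was the only call there among 12 pocket protein and E2F genes. From E18.5 to P1, Cdkn2d (log2 change 8.03, edgeR adjusted p = 0.0380) and Tfdp2 (6.48, 0.0385) were called higher in alveolar fibroblasts. In that comparison 6.16% of genes were called, and the E18.5 libraries held 14 and 24 cells.

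Within the classes, Cdk4 was lower at P21 in both mice than in both mice of P7 in 5 of 5 classes. Of 10971 genes tested in each class, 73 (0.665%) did the same. The levels were 453 and 491 against 117 and 126 CPM in alveolar fibroblasts, 410 and 373 against 131 and 223 in adventitial fibroblasts, and 584 and 307 against 136 and 294 in pericytes. They were 427 and 284 against 164 and 178 in airway smooth muscle, and 599 and 492 against 87.3 and 414 in vascular smooth muscle. Log2 changes ran from -1.96 to -0.90, and 0 of 5 passed the adjusted threshold (edgeR adjusted p from 0.214 to 0.956; 3 had an unadjusted p under 0.05). In alveolar fibroblasts the change was called without the female (edgeR adjusted p = 0.0377) or the male (0.0335) of E18.5. The share of genes called was 0.0702% in alveolar fibroblasts, 0.124% in adventitial fibroblasts, 0.0504% in pericytes, 1.13% in airway and 0.0886% in vascular smooth muscle.

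Ccnd2 was lower without overlap in 4 of 5 classes, and 398 of the 10971 genes (3.63%) were so in at least that many. In alveolar fibroblasts it went from 595 and 762 to 84.0 and 151 CPM (log2 change -2.54, SE 0.43, edgeR adjusted p = 0.155), and in airway smooth muscle from 298 and 273 to 100.2 and 55.2 (-1.88, SE 0.43, adjusted p = 0.0929). Vascular smooth muscle was the exception, with 834 and 977 CPM at P7 and 422 and 1177 at P21. The P21 cells carrying the airway smooth muscle label itself, 58 of 62 and 55 of 57 of the class, had 38.0 and 31.1 CPM, and the remaining cells were of the early subtype. Without the female at P21, the airway smooth muscle change was called (-2.51, edgeR adjusted p = 0.0394). The alveolar change was called without the female (0.0198) or the male (0.0180) of E18.5 and with the 4 mice alone (0.0244). Cdk6, the other kinase, was lower without overlap in 2 of 5 classes, as were 16.1% of genes in adventitial fibroblasts and 23.7% in airway smooth muscle. It went from 116 and 84.8 to 30.2 and 32.7 CPM in the former and from 115 and 114 to 52.9 and 20.5 in the latter, a change called without the female at P21 (-2.64, edgeR adjusted p = 0.0406). In pericytes it lay between 407 and 947 CPM at both ages. Ccnd1 was lower without overlap in only 1 of 5 classes, as were 16.1% to 23.7% of genes in each class. Its log2 changes ran from -4.86 to 1.78, below 0 in 3 classes and above 0 in 2 (lowest edgeR adjusted p = 0.480). Its fall in all cells was thus not seen in every class.

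**Figure D4:**
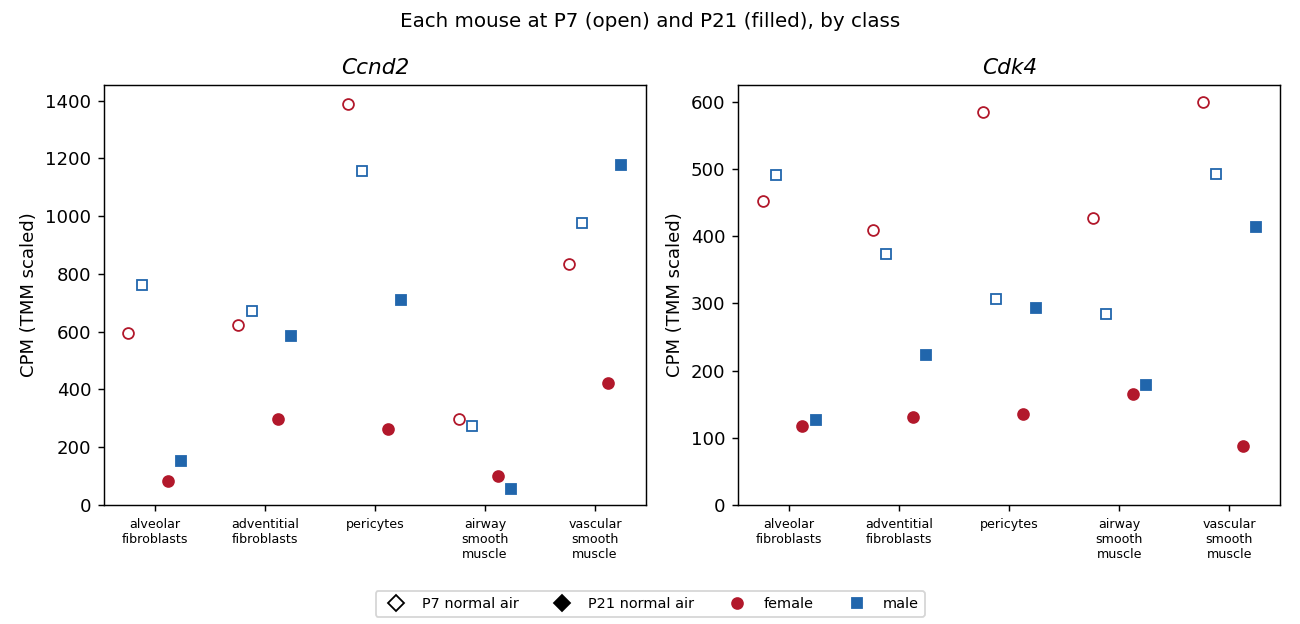
CPM of Ccnd2 and Cdk4 (vertical axes, linear from 0) in each mouse at P7 (open) and P21 (filled) in 5 classes; circles are females and squares males. For Cdk4 both filled points sit below both open points in every class, and for Ccnd2 the male of P21 in vascular smooth muscle sits above both open points.

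Run, genes per cell and markers of other cell types are given beside this step. The mesenchymal plates of the female mice of P7 and P21 were in different runs, so run and age cannot be told apart there. Those of the male mice of these ages shared a run. After thinning to 100000 reads, a median cell held 2449 and 2340 genes at P7 and 2654 and 1536.5 at P21. Only the male of P21 was below P7 in this measure. From P7 to P21 the 6 endothelial markers went from 5.13 and 7.10 to 18.6 and 15.2 CPM of total reads, the 6 epithelial ones from 31.0 and 33.0 to 8.66 and 25.2, and the 6 immune ones from 48.1 and 37.2 to 23.6 and 25.5. None of these 3 sums overlapped between the ages. Their part in the results was not tested.

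The inhibitor Cdkn2c was higher at each age step in alveolar fibroblasts. It had 0 reads in the 38 alveolar cells of E18.5, 25.1 and 35.8 CPM at P1, 125 and 149 at P7, and 195 and 280 at P21. The groups did not overlap at any step. Pericytes of E18.5 also had 0 reads of Cdkn2c, in 28 cells. In alveolar fibroblasts, 48.6% of genes were above without overlap from E18.5 to P1, 18.1% from P1 to P7 and 21% from P7 to P21. Most fibroblasts of E18.5 were labelled fibroblast precursors, a subtype outside this class, and these 425 and 335 cells held 18.0 and 12.7 CPM. The E18.5 to P1 difference was called (edgeR adjusted p = 0.0284). Against a floor of 3 counts over the E18.5 group, the P1 mean was 154-fold higher. That floor counts reads and not cells, and Cdkn2c was read in only 21.3% of all cells, so the fold is no bound. In that comparison 6.16% of genes were called, and the median log2 change of all genes was 1.35. The E18.5 libraries held 14 and 24 cells with medians of 1042.5 and 920.0 genes after thinning. The call was lost without each of the 8 mice older than E18.5 (adjusted p from 0.0578 to 0.157) and with the 4 mice alone (0.572).

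Across the 6 classes, the log2 change of Cdkn2c from P1 to P7 was above 0 in 6 of 6. Examples are myofibroblasts, with 28.4 and 18.4 CPM at P1 and 75.1 and 61.6 at P7, and pericytes, with 6.52 and 0.123 at P1 and 35.1 and 28.9 at P7. In edgeR 0 of the 6 were called (adjusted p from 0.595 to 1.00), as were 0% of all genes in each class, and 4 had an unadjusted p under 0.05. Without the male at P7, the vascular smooth muscle difference turned from 7.12 to -0.34 on the log2 scale. Ccnd3 was below 0 in 6 of 6 classes in that step, with log2 changes from -1.01 to -0.19 and 0 calls.

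Hyperoxia was compared with normal air at P7, so it shares its controls with both age steps at P7. Over all cells 0 of 9 members passed the adjusted threshold, against 0.243% of all genes. At an unadjusted p under 0.05 there were 3 members and 12.3% of genes. Both hyperoxia mice lay above both controls for 4 members and below for 1, against 24.2% and 24.2% of genes. The highest members were Ccnd1 and Cdk6. Each lay above both controls in 5 of 5 classes, as 188 of 11634 genes tested in each class did (1.62%).

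Ccnd1 was at 140 and 144 CPM in all cells of the hyperoxia mice and at 47.0 and 41.3 in normal air, a log2 difference of 1.68 (SE 0.52, edgeR adjusted p = 0.242). Myofibroblasts, the class with the highest level, had 663 and 645 against 144 and 94.4 CPM (2.50, SE 0.33, adjusted p = 0.184, unadjusted p = 0.000179). Airway smooth muscle had 34.6 and 65.9 against 1.78 and 4.67, and vascular smooth muscle 73.3 and 63.5 against 4.40 and 5.18. The gap was narrower in adventitial fibroblasts, at 67.6 and 111 against 29.6 and 61.6. Alveolar fibroblasts had 53.8 and 75.9 against 19.6 and 0.824. Without the hyperoxia male, the fitted difference in airway smooth muscle turned to -1.83.

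Ccnd1 was also read in more cells. At 100000 reads a cell, 169 of 501 and 224 of 548 hyperoxia cells had a read, against 72 of 592 and 67 of 547 in normal air (unthinned, 180 of 509 and 241 of 551 against 80 of 606 and 86 of 570). Among cells with a read the median was 212 and 203 CPM in hyperoxia and 186 and 93.7 in normal air. Hyperoxia cells held more genes in general, with medians of 3795 and 4518.5 at 100000 reads against 2449 and 2340. On the mesenchymal plates even Cdkn2c was read in 28.5% to 42.8% of hyperoxia cells, against 20.3% to 31.9% in normal air. Its CPM of total reads was lower, at 44.2 to 68.8 against 73.5 to 101. How far the Ccnd1 counts of cells go with this was not tested.

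Cdk6 was at 302 and 317 CPM in all cells under hyperoxia and at 128 and 209 in normal air (log2 difference 0.95, SE 0.32, edgeR adjusted p = 0.273). Myofibroblasts had 646 and 891 against 186 and 284 (1.73, SE 0.32, adjusted p = 0.347). Vascular smooth muscle had 524 and 554 against 78.4 and 215, and airway smooth muscle 304 and 373 against 115 and 114. Alveolar fibroblasts had 202 and 223 against 58.0 and 82.7, and adventitial fibroblasts 158 and 237 against 116 and 84.8. Class log2 differences ran from 0.91 to 2.09. In the 5 classes 0% of all genes were called under hyperoxia, Ccnd1 and Cdk6 included.

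In myofibroblasts, 0 of 9 members were called, as were 0% of all genes (4 members and 847 genes, or 6.33%, at an unadjusted p under 0.05). Fitted to the 4 mice alone, Ccnd1 was called there. Without the female of P1, Ccnd1 and Cdk6 were called, and without the male of P1 also Cdkn2c. Ccnd2 was at 2187 and 2379.9 against 1254 and 1324 CPM in this class (log2 difference 0.82, SE 0.31, adjusted p = 0.762).

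**Figure D5:**
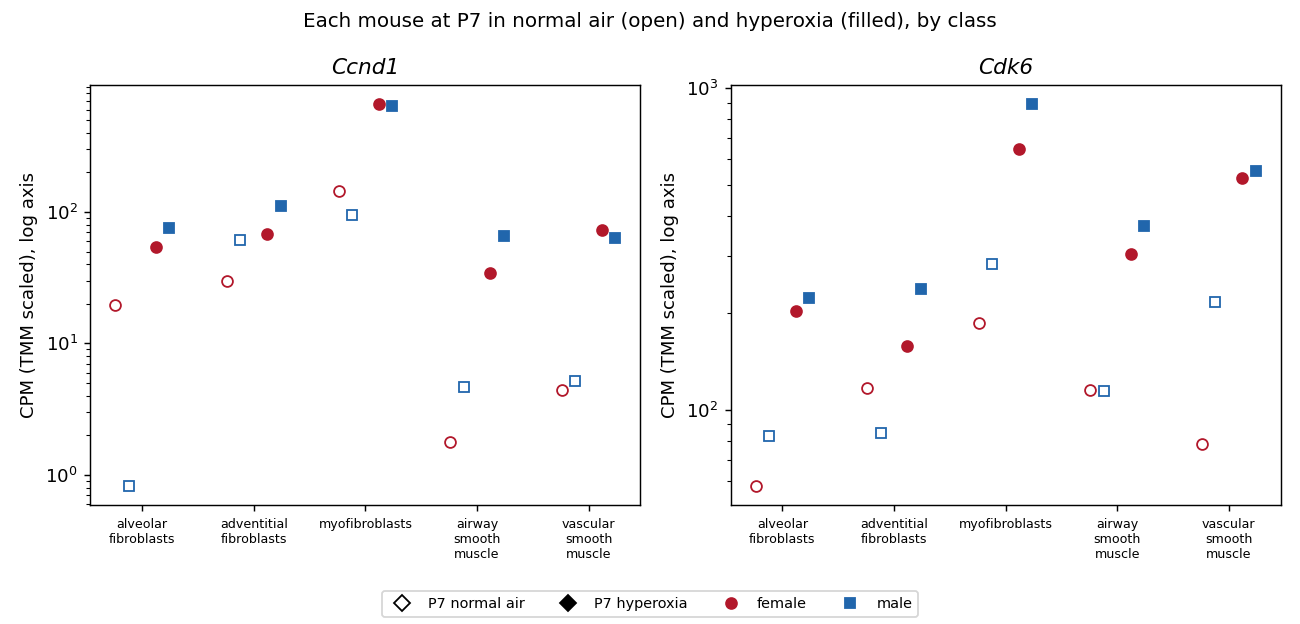
CPM of Ccnd1 and Cdk6 (vertical log axes) in each mouse at P7 in normal air (open) and hyperoxia (filled) in 5 classes; circles are females and squares males. The filled points lie above both open points in every class, with Ccnd1 in myofibroblasts at 663 and 645 against 144 and 94.4.

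The inhibitor Cdkn2c lay below both controls in 2 of 5 classes, alveolar fibroblasts and myofibroblasts, as did 20.2% and 23.9% of genes. It was at 70.8 and 49.4 CPM against 125 and 149 in alveolar fibroblasts. In myofibroblasts it was at 22.1 and 9.89 against 75.1 and 61.6 (log2 difference -2.20, SE 0.60, edgeR adjusted p = 0.598). The kinase Cdk4 overlapped between the groups in all cells, with 551 and 388 CPM against 546 and 571. Of the listed genes outside the members, 1 was called in all cells: Cdkn1a, at 1185 ± 76.5 CPM against 83.2 ± 5.74 (SD, n = 2 each; log2 difference 3.83, SE 0.37, adjusted p = 0.00749). Of the 20 S phase and mitosis genes 0 were called; 14 lay below both controls and 0 above (median log2 difference -0.42), beside 24.2% of all genes in each direction and a median of 0.00. In these mice proliferating subtypes held 42 of 509 and 45 of 551 cells.

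Several measures moved with hyperoxia. Hyperoxia mice had sequencing runs of their own, apart from 1 small run of CD31-sorted cells, so run and treatment cannot be told apart. In that shared run 14 cells of the male in normal air gave 9.17 CPM of total reads for Ccnd1 and 358 for Cdk6, and 9 cells of the hyperoxia male gave 241 and 533; their subtypes differed. On the mesenchymal plates, Ccnd1 ran from 130 to 174 CPM of total reads on the 4 hyperoxia plates and from 28.2 to 71.2 on the 4 normal air plates, and Cdk6 from 278 to 394 and from 125 to 267. A median hyperoxia cell held 3795 and 4518.5 genes at 100000 reads, against 2449 and 2340. The 6 endothelial markers summed to 15.8 to 36.3 CPM of total reads against 5.13 to 7.10, and the 6 epithelial ones to 40.9 to 54.2 against 31.0 to 33.0. The sums of the 6 immune ones overlapped, at 28.9 to 51.0 against 37.2 to 48.1. Every marker of these lists had reads in both hyperoxia mice, and 1 epithelial marker was at 0 in the male of normal air. Their part in the results was not tested.

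Likeness was measured by Pearson's r of log2(CPM + 1) over 64 subtype-by-mouse libraries, which share mice, depth and scaling, among 9469 genes with a mean of at least 10 CPM. The genes most like Cdk4 were Rbmxl1, Cfl1 and Brix1 (each r = 0.85). Those of Ccnd2 were Wisp1 (0.70), Myl12a (0.63) and its kinase partner Cdk6 (0.61), the closest pair among the members. Those of Cdk6 were BC028528 (0.74), Ttyh2 (0.74) and Trib2 (0.70), and those of Ccnd1 were Ptges3 (0.65), Rap2b (0.62) and Kdelr2 (0.59). Ccnd3 was most like Igf2bp2 (0.64), Igf2bp3 (0.63) and H6pd (0.61). Cdkn2c was most like Ppil3 (0.64), Dennd4a (0.63) and Nasp (0.62), and Cdkn1b most like Zfp949 (0.66), Rgl2 (0.66) and Slc2a1 (0.62). For the sparse Rb1 (Pura, 0.54; Pik3c3, 0.54; Bace1, 0.51) and Cdkn2b (Msln, 0.52; Cfb, 0.49; Serpinh1, 0.42) the values were weaker. The member pair farthest from likeness was Ccnd2 and Cdkn1b (r = -0.23).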

How the data were processed

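Plate-based libraries made with the Tn5 transposase held single cells sorted from distal lung, per the labels. The deposited counts were whole reads per gene and cell, not normalized, with no molecular identifiers named. The submitters' processing notes name STAR 2.5.2b, HTSeq 0.10 and a human build, GRCh38, although the cells are mouse, so the authors' build is unsettled and no coordinate is theirs. Subtype, mouse, sort and run came from the labels. Cells with at least 10 per mouse and class were summed. edgeR 4.0.16 in R 4.3.3 fitted all groups of a class with terms for sex and group, TMM scaling and filterByExpr; 23 comparisons gave 198 member tests. Alternatives used DESeq2 1.42.0, limma 3.58.1 on log2(mean CPM per cell + 1) and other settings. The code was tested on simulated data. Exon lengths came from GENCODE M21. Thinning to 100000 reads left out 168 cells, and 0 count columns were unmatched.

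The 9 members and the gene lists were chosen with earlier results of these data known. All 9 members were named. List genes were named where called, up to 4 a list and comparison by size, and 3 genes of highest likeness a member. Intervals and floors cover counting error only, since reads copied from 1 molecule count separately. Whether doublets had been removed is not given in the sources used here. The letters F and M name the sex of a mouse and pair no litters or days.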

Additional observations from a re-analysis of the deposited data

Results flagged for a closer look

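No group held more than 2 mice, so single samples were not screened for standing apart. Some members lay above in both mice of one class and below in both mice of another under the same comparison. None of these differences between classes was tested, and each value is one fitted log2 change minus the other.

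Under hyperoxia, Ccnd2 was above both controls in airway smooth muscle (log2 difference 0.93) and myofibroblasts (0.82) and below both in adventitial fibroblasts (-0.12), gaps of 1.05 and 0.94. Cdkn1b was above in vascular smooth muscle (1.94) and below in airway smooth muscle (-0.94), a gap of 2.88. From P1 to P7 the same gene was above in airway (1.23) and below in vascular smooth muscle (-3.27), a gap of 4.50, and from P7 to P21 it was above in pericytes (3.15) and below in airway smooth muscle (-0.92), a gap of 4.07.

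From P1 to P7, Cdk4 was above in alveolar fibroblasts (0.56) and vascular smooth muscle (1.09) and below in myofibroblasts (-0.18), gaps of 0.74 and 1.27. Rb1 was above in adventitial fibroblasts (5.02) and below in airway smooth muscle (-3.83), a gap of 8.86.

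From E18.5 to P1, Cdkn2c was above in alveolar fibroblasts and pericytes, whose E18.5 libraries had 0 reads of it, and below in adventitial fibroblasts (51.8 and 60.0 CPM at E18.5, 10.2 and 6.86 at P1). The fitted gaps of 17.94 and 11.60 are set by those zeros and are no bound. Rb1 was above in alveolar (4.44) and below in adventitial fibroblasts (-3.43), a gap of 7.88.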

How the results depend on the processing

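The number of members called, summed over a class's comparisons, was 3 in all cells, 1 in alveolar fibroblasts and 0 in the other 5 classes. DESeq2 gave 7 in all cells, 6 in alveolar fibroblasts, 4 in adventitial fibroblasts, 3 in myofibroblasts, 3 in pericytes, 2 in airway smooth muscle and 1 in vascular smooth muscle. limma on the mean CPM per cell gave 4 in all cells, 2 in alveolar fibroblasts and 2 in airway smooth muscle. A fit of the 4 mice compared gave 6 in all cells and 1 in myofibroblasts. Without the CD31 and CD45 sorts airway smooth muscle had 1. Leaving out each mouse in turn gave 0 to 6 in all cells, 0 to 4 in alveolar fibroblasts, 0 to 3 in myofibroblasts and 0 to 2 in airway smooth muscle. The causes were not tested.

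The letters F and M are shared by all groups and served as a block for sex in each fit. Without this replicate block, all cells had 4 calls and alveolar fibroblasts 1, and 189 of 198 member directions were kept. Scaling by RLE kept 194 of 198, and without a filter on low counts it was 195. Over the leave-one-out fits, 1613 of 1764 directions were kept. For member values with an unadjusted p under 0.05, 397 of 398 were kept, the exception being Cdkn2c in vascular smooth muscle from P1 to P7 without the male of P7 (range over those fits -0.34 to 10.33). The hyperoxia difference of Ccnd1 in airway smooth muscle was -1.83 without the hyperoxia male and at most 9.59 in the other fits with a mouse left out, and the other 94 of 95 alternative values of Ccnd1 and 95 of 95 of Cdk6 were above 0. Each member's level in its highest subtype, and the mean D cyclin shares over all 64 libraries, moved by less than 1 SD under each alternative. For the shares, that SD spans all subtypes and could hardly be passed. By reads without exon length, Ccnd2 led in 53 of 64 libraries. In hyperoxia myofibroblasts, however, the Ccnd1 share went from 34.7% ± 1.89 per exon length to 21.1% of reads, and that of Ccnd2 from 60.6% ± 1.53 to 73.6% (n = 2). Few cells limit pericytes and the alveolar fibroblasts of E18.5.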
